A study of Mus musculus with 73 samples.

Results

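The chemokine ligands were described across 73 mouse mammary tumours. Members were all gene symbols of the count table that start with Ccl, Cxcl, Cx3cl or Xcl followed by a number, which gave 34 of 39438 symbols. Ccl26 and Ccl27b had no read in any tumour, and the other 32 are described by the leukocytes they are best known to attract. Ccl19, Ccl21a, Ccl21b, Ccl21d and Ccl27a are listed only in the deposited log2 table and entered no test.

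Poly(A) RNA was sequenced from 5 genotype classes that lack Trp53 in the mammary epithelium, a loss that all groups share. As background, in the K14cre mouse models KP tumours lack Trp53 alone, KB1P tumours also lack Brca1 and KB2P tumours also lack Brca2. KB1PM, which the genotype labels group under KB1P, stands in these models for a further loss of the drug efflux transporter genes Mdr1a and Mdr1b. L1363P tumours have the genotype label KB1(L1363P)P and carry the Brca1 variant p.L1363P; the labels do not give the Cre driver, the ages of the mice or the strain. By histology there were 3 adenocarcinomas, 9 carcinosarcomas and 9 sarcomatoid tumours of L1363P, and 5 adenocarcinomas and 3 carcinosarcomas of KP. The 11 KB1P, 10 KB1PM and 23 KB2P tumours were all adenocarcinomas. The labelled epithelial percentage was 100 in adenocarcinomas, 80 to 90 in KP carcinosarcomas, 2 to 98 in L1363P carcinosarcomas and 0 in sarcomatoid tumours. A number in the labels of each library is taken here as its sequencing run, which the labels do not say in words. By it, the L1363P and KP libraries came from run 5625 and the other genotypes from other runs that no 2 groups shared, so genotype and run cannot be told apart outside the L1363P with KP comparison.

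Chemokines are small secreted proteins, with a few membrane-bound forms, that bind G protein-coupled receptors and steer the movement of leukocytes along concentration gradients. Ligands of Cxcr2 such as Cxcl1 and Cxcl5 draw neutrophils, ligands of Ccr2 such as Ccl2 draw monocytes, and the interferon-induced ligands of Cxcr3 draw activated T cells. In mammary tumours they are made by cancer cells, fibroblasts and the infiltrating leukocytes themselves, so a bulk level does not name the cell that made the RNA.

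The promoter stretches that follow are those of the neutrophil ligands Cxcl1, Cxcl2 and Cxcl3, the T cell ligand Cxcl10 and the Ccr6 ligand Ccl20. Each holds a match that is marked below in capitals, and the first 3 share 1 stretch of bases. Cxcl1 and Ccl20 were called in none of the main comparisons below. Cxcl10 was called only for KP against KB2P adenocarcinomas, and not without KP tumour 90.01A. Other called members, such as Ccl2, Ccl7 and Cxcl5, are not shown. The sequences are from RefSeq (GRCm38.p6), 5′ to 3′ on the strand of the gene. Capitals mark matches to the kB motif, the site recognised by NF-kB, and in Cxcl10 also the first capital run, a match to the interferon response motif (ISRE).

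Cxcl1 (chr5:90891145-90891244, plus strand, positions -100 to -1 from the transcript start): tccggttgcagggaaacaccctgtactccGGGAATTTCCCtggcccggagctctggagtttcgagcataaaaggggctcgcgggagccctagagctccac

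Cxcl2 (chr5:90903779-90903878, plus strand, positions -120 to -21): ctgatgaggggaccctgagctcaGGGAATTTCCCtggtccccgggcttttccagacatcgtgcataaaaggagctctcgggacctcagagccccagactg

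Cxcl3 (chr5:90786001-90786100, plus strand, positions -100 to -1): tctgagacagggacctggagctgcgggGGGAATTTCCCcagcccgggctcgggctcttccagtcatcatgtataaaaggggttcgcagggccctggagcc

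Cxcl10 (chr5:92348980-92349109, minus strand, positions -220 to -91): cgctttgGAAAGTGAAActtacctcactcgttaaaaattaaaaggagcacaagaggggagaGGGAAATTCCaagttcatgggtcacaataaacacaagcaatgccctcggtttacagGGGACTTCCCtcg

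Ccl20 (chr1:83116647-83116746, plus strand, positions -119 to -20): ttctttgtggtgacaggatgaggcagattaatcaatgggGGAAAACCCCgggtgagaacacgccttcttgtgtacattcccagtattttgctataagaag

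Cxcl1, Cxcl2 and Cxcl3 lie in a run of neutrophil ligand genes on chromosome 5 and share the stretch GGGAATTTCCC, which holds 2 overlapping kB matches and begins 71, 97 and 73 bases before the start. Cxcl10 holds the ISRE match GAAAGTGAAA at 213 bases before its start and kB matches at 159 and 103 bases before it. In Ccl20 the kB match GGAAAACCCC begins 80 bases before the start. RefSeq promoters of 300 bases were found for 23 of the 34 members, and 6 of them (Ccl9, Ccl20, Cxcl1, Cxcl2, Cxcl3 and Cxcl10) held a kB match, against 4.51% of 32851 promoters of that length. The ISRE pattern (GAAA, any 2 bases and GAAA) was in 2 members (Cxcl10 and Cxcl14) and 3.44% of promoters, the STAT pattern TTCNNNGAA in 2 members (Ccl17 and Cxcl14) and 8.3%, and the AP-1 pattern TGANTCA in 5 members (Ccl9, Ccl27b, Ccl28, Cxcl9 and Cxcl10) and 7.81%. Both strands were searched, the kB motif by its name alone, and a match describes the letters only.

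The libraries held 7325180 to 31615237 counted reads, of which 1165 to 58104 fell on members. Libraries were set against their histology label with a list of 5 epithelial genes (Cdh1, Epcam, Krt8, Krt14 and Krt18) and a list of 8 macrophage and monocyte genes. Levels here are CPM, read counts scaled to the size of the library with TMM factors, and marker lists are given by the sum of their CPM. KP adenocarcinoma 90.01A, labelled as 100% epithelium, had an epithelial sum of 249.3 against a median of 2233 in its group, and a macrophage sum of 9309, the highest of its group. L1363P carcinosarcoma 17, labelled as 5% epithelium, had an epithelial sum of 105.1, the lowest of its group, and carcinosarcoma 4, labelled as 2%, had 332.1. Carcinosarcoma 6, labelled as 95% epithelium, had an epithelial sum of 312.7, against 2199 or more in the other 6 carcinosarcomas, so its markers went against its label. KB2P tumour 30 and KB1PM tumour 8, labelled as 100% epithelium, had epithelial sums of 10.36 and 126.0, against group medians of 1623 and 2426. Both were the lowest of their groups and had the highest Cxcl12 there, at 1258 and 624.7 CPM. No comparison was run that left out either of these tumours alone. Counts of called members are given with and without 90.01A, 17 and 4 where these differ, and without carcinosarcoma 6 for the comparisons that use the carcinosarcomas. In bulk tumours fewer cells of a type and less RNA per cell cannot be told apart.

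Sarcomatoid L1363P tumours had higher RNA levels of 6 monocyte ligands, of the neutrophil ligands Cxcl3 and Cxcl5 and of Cxcl12 than L1363P adenocarcinomas. Of 31 members that passed the filter on low counts, 9 were higher and 2 were lower in edgeR's quasi-likelihood test at a Benjamini-Hochberg adjusted p under 0.05, which was fitted across all genes of the 29 libraries of the run. Over all 16147 genes tested, 30.6% were called, 12.1% as higher and 18.5% as lower. The median log2 fold change was 2.28 over the members and -0.09 over all genes. By class, 6 of 7 monocyte ligands, 2 of 5 neutrophil ligands, 0 of 12 T cell ligands and 1 of 7 other ligands were higher, with median log2 fold changes of 3.13, 3.20, 1.59 and 1.55. Differences between the classes were not tested. Without KP adenocarcinoma 90.01A, which shares the estimate of spread, 12 members were higher (13.1% of genes), with Cxcl1, Cxcl2 and the T cell ligand Ccl4 added. Without 90.01A and carcinosarcomas 17 and 4, 14 were higher (15.4% of genes), with the T cell ligands Ccl5 and Cxcl10 added as well. These tumours lie outside the groups compared. Leaving out an adenocarcinoma of the comparison lowered the count. Without 26.2, 0 members were higher (4.19% of genes), without 7.2, 3 were (7.7%), and without 52, 3 were (9.53%).

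Among the neutrophil ligands, Cxcl5 was at 1.484, 2.01 and 2.228 CPM in the 3 L1363P adenocarcinomas and ranged from 8.148 to 217.8 CPM in sarcomatoid tumours, with a median of 119.2. Cxcl3 was at 0.06485, 0.1204 and 1.35 CPM in the adenocarcinomas and ranged from 5.565 to 298.4 CPM in sarcomatoid tumours, with a median of 69.24. For both, all 9 sarcomatoid tumours were above all 3 adenocarcinomas. The log2 fold change was 5.73 ± 1.67 (SE; adjusted p = 0.0123) for Cxcl5 and 7.63 ± 2.45 (adjusted p = 0.0206) for Cxcl3. Cxcl1 did not pass the test, at 9.539 to 100.2 CPM in sarcomatoid tumours against 3.891, 4.791 and 14.81 CPM (log2 fold change 2.20, adjusted p = 0.0585). Cxcl15, known from lung epithelium, stayed at or under 1.621 CPM in both groups.

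Per kb of merged annotated exon, the monocyte ligands Ccl2 and Ccl7 had the highest medians of all members in sarcomatoid tumours, at 218.7 and 161.5. On that scale Cx3cl1 and Ccl3 of the same class were at 6.758 and 6.738 CPM per kb. The order depends on this length. By CPM alone the median of Cxcl12, with 8176 bases of merged exon, was above that of Ccl2, at 739.2 against 248.9. Ccl2, the main ligand of Ccr2, was at 4.41, 17.21 and 29.74 CPM in L1363P adenocarcinomas and at 107.1 to 500.3 CPM in sarcomatoid tumours, with a median of 248.9. Ccl7, a second Ccr2 ligand whose gene lies next to Ccl2 on chromosome 11, was at 3.307, 9.851 and 13.55 CPM against 54.78 to 322.3 CPM, with a median of 129.3. Ccl12, the mouse ligand of the same gene cluster, was at 3.048, 3.914 and 6.743 CPM against 20.49 to 123.2 CPM. No value of the adenocarcinomas reached the lowest of the sarcomatoid tumours for any of these. Their log2 fold changes were 3.97 ± 1.28 (adjusted p = 0.021), 4.15 ± 1.31 (adjusted p = 0.019) and 3.64 ± 1.19 (adjusted p = 0.0224).

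Ccl9 and Ccl6, related mouse ligands of Ccr1 made largely by myeloid cells, were also above all 3 adenocarcinomas in all 9 sarcomatoid tumours. Ccl9 was at 21.98, 31.71 and 52.63 CPM in adenocarcinomas and 136.4 to 1046 CPM in sarcomatoid tumours (log2 fold change 3.13 ± 0.90, adjusted p = 0.011). Ccl6 was at 19.21, 37.38 and 51.36 CPM against 91.06 to 351.2 CPM (2.42 ± 0.86, adjusted p = 0.0344). Ccl3, a ligand of Ccr1, was lower in level, at 0.7133, 0.7225 and 1.889 CPM against 0.8665 to 22.54 CPM, and the groups overlapped (2.95 ± 1.10, adjusted p = 0.0429). Cx3cl1, the membrane-bound ligand of Cx3cr1, did not pass the test, at 24.45, 28.54 and 147.3 CPM against 9.274 to 125.7 CPM (log2 fold change -0.88, adjusted p = 0.262, and 0.44 without adenocarcinoma 7.2).

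**Figure D1:**
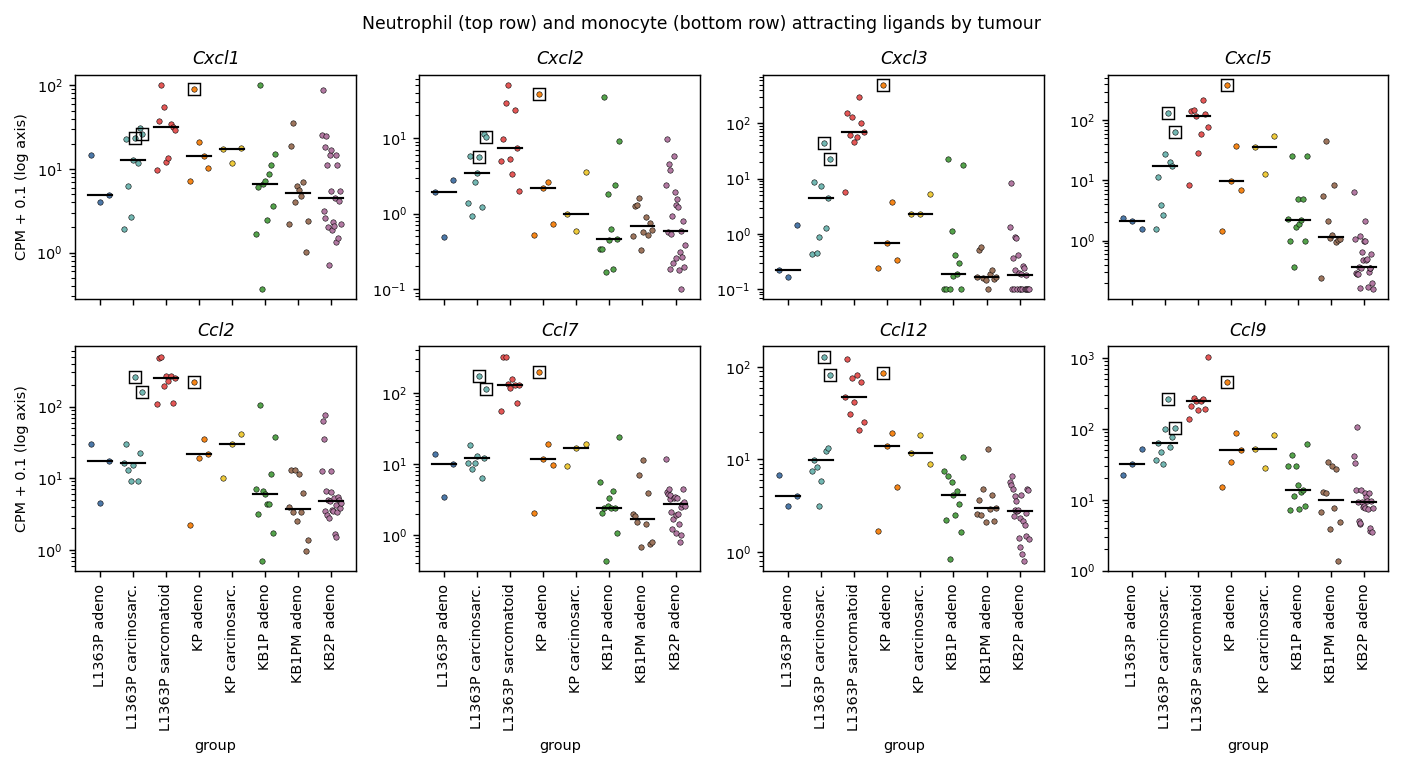
Neutrophil ligands (top) and monocyte ligands (bottom) in each tumour, as CPM plus 0.1 on a log axis; each point is 1 tumour, bars are group medians and squares mark KP adenocarcinoma 90.01A and L1363P carcinosarcomas 17 and 4. The sarcomatoid tumours lie at 107.1 to 500.3 CPM for Ccl2, and the square in the KP adenocarcinomas is the tumour at 219.2 CPM.

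In the T cell class, Ccl28, a mucosal ligand of Ccr10, was the 1 called member and was lower (log2 fold change -1.51 ± 0.56, adjusted p = 0.0421). Its values overlapped, at 0.7133, 1.35 and 5.419 CPM in adenocarcinomas and 0.5025 to 1.216 CPM in sarcomatoid tumours, and the call was lost in 9 of 35 alternatives: without adenocarcinoma 7.2, without any 1 of sarcomatoid tumours 10, 20, 32, 37, 41 or 43, without the filter on low counts and in limma. The Cxcr3 ligands Cxcl9 and Cxcl10 ranged widely within the sarcomatoid tumours, from 1.704 to 312.8 CPM and from 15.2 to 351.4 CPM. Cxcl9 was at 0.6073, 1.686 and 33.78 CPM in the adenocarcinomas. Ccl20 reached 34.21 CPM in adenocarcinoma 52 and was at 0 to 7.896 CPM in sarcomatoid tumours (log2 fold change -3.09, adjusted p = 0.0532, and 0.23 without adenocarcinoma 52).

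Of the other members, Cxcl12, the stromal ligand of Cxcr4 and Ackr3, was at 27.36, 34.61 and 88.32 CPM in adenocarcinomas and had a median of 739.2 CPM in sarcomatoid tumours. In 8 of the 9 sarcomatoid tumours it lay above all adenocarcinomas, between 92.68 and 1052 CPM, and in tumour 9.1 it was at 60.34 CPM (log2 fold change 3.70 ± 1.33, adjusted p = 0.0359). Cxcl17, a ligand of mucosal epithelia, was lower, at 0 to 0.5025 CPM against 0.135, 8.43 and 25.65 CPM (-6.17 ± 1.10, adjusted p = 0.000352). Ccl11, an eosinophil ligand, did not pass (1.55, adjusted p = 0.102).

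Of 17 conventional chemokine receptors tested, 6 were higher and 2 lower, where 12.1% of all genes were higher and 18.5% lower. Receptor and marker calls of this comparison with 1 tumour left out are not reported here. Ccr2, the receptor of Ccl2 and Ccl7, was higher by a log2 fold change of 3.61 (adjusted p = 0.0045), Ccr1 by 2.61 (adjusted p = 0.00897) and the neutrophil receptor Cxcr1 by 5.84 (adjusted p = 0.0324). Ccr7, a receptor of naive T cells and mature dendritic cells, was lower (-3.28), and so was Ccr10 (-2.05). Cxcr4 was not called (log2 fold change -0.06), while Ackr3, the atypical receptor of Cxcl12, was higher (3.18, adjusted p = 0.00699) and was the 1 called member of 4 atypical receptors. None of 12 tested cytokine, interferon and NF-kB genes was called.

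Markers of the infiltrating and stromal cells moved with the ligands. The macrophage and monocyte sum ran from 3651 to 7062 CPM in sarcomatoid tumours and from 619.3 to 1115 CPM in L1363P adenocarcinomas, and 7 of its 8 genes were higher. The neutrophil sum had a median of 781.7 against 53.85 CPM, with 4 of 6 tested genes higher; its maximum of 10110 CPM was in tumour 9.1, which also had the highest Ccl9. The fibroblast sum ran from 9231 to 20020 against 1669 to 2953 CPM, with 4 of 5 genes higher, and all 5 epithelial genes were lower. The T cell sum ran from 5.468 to 84.44 against 15.52 to 93.51 CPM, with 0 of 8 genes higher and Lck lower. The part of these cells in the ligand levels was not tested.

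The count of higher members in this comparison depended on the 3 adenocarcinomas. Without adenocarcinoma 26.2, 0 members were higher and 2 were lower, with 4.19% of genes higher. Without 7.2, 3 were higher and 2 lower, with 7.7% of genes higher, and without 52, 3 were higher and 2 lower, with 9.53% of genes higher. Cxcl17 was called in all 34 alternatives that tested it.

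Against L1363P carcinosarcomas, 3 of 31 members were higher in sarcomatoid tumours and 0 were lower, with 21.5% of all genes called, 7.45% as higher and 14% as lower. These were Ccl9 (log2 fold change 1.84 ± 0.53, adjusted p = 0.0162), Ccl2 (2.16 ± 0.73, adjusted p = 0.0352) and Cxcl3 (3.35 ± 1.16, adjusted p = 0.0408). The carcinosarcomas were split: Ccl2 was at 9.023 to 30.15 CPM in 7 of them, at 157.7 CPM in tumour 4 and at 262.9 CPM in tumour 17. Cxcl12 had the same order, at 22.97 to 253.1 CPM in 7 tumours against 1091 CPM in tumour 4 and 1146 CPM in tumour 17, both above all 9 sarcomatoid tumours. Ccl7 was at 6.189 to 18.11 CPM in 7 tumours, 113.8 CPM in tumour 4 and 172.9 CPM in tumour 17, and did not pass the test (1.96, adjusted p = 0.0547). Without any 1 of carcinosarcomas 18, 21.1, 45, 53, 54.1 or 54.2 only Ccl9 was called, and without 6 Ccl9 was higher (6.18% of genes were) and Cx3cl1 lower. Without KP 90.01A, Ccl7 was called too, for a count of 4. Without carcinosarcoma 4 the count was 5 and without 17 it was 8. The share of all genes called without 90.01A, 4 or 17 is not given here. These 3 counts therefore cannot be read as particular to the ligands. Ccl2 also lost its call without sarcomatoid tumour 20, 29 or 37, Cxcl3 without 20, 32, 40.1 or 43, and Ccl9 without 9.1. Ccl17 (-1.48, adjusted p = 0.105), Cxcl1 (1.22, adjusted p = 0.109) and Cxcl12 (1.09, adjusted p = 0.296) did not pass either.

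Without carcinosarcomas 17 and 4 and KP adenocarcinoma 90.01A, 16 members were higher and 1 was lower in sarcomatoid tumours than in carcinosarcomas. In this fit 17.9% of all genes were higher and 19.4% lower. Tumours 17 and 4 had the highest Ccl2, Ccl7 and Cxcl12 of the carcinosarcomas. Leaving them out raises the fold changes of these members by the choice of tumours, so their calls here are no separate support. The limit of 75% epithelium used below leaves both out too. The higher members were the neutrophil ligands Cxcl1, Cxcl2, Cxcl3 and Cxcl5, the monocyte ligands Ccl2, Ccl3, Ccl6, Ccl7, Ccl9 and Ccl12, the T cell ligands Ccl4, Ccl5 and Cxcl10, and Cxcl12, Cxcl13 and Xcl1. Ccl2 then had a log2 fold change of 4.06, Ccl7 of 3.87, Cxcl3 of 5.02 and Cxcl12 of 3.22 (adjusted p = 0.000393). The lower member was Cx3cl1 (-1.36, adjusted p = 0.0197). When only carcinosarcomas of at least 75% epithelium were kept, 15 were higher and 1 was lower, the same names without Cxcl10, with 16.6% of genes higher and 18.1% lower.

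Within the 9 L1363P carcinosarcomas the labelled epithelial percentage gave a slope that was tested per 10 percentage points. Of 28 members tested, 9 fell with rising epithelium and 0 rose, with 8.34% of 14645 genes called, 5.76% as falling. The steepest was Cxcl13, the B cell ligand of Cxcr5, which fell by 0.71 ± 0.079 on the log2 scale per 10 points (adjusted p = 0.00361). Ccl5, a T cell attracting ligand, fell by 0.47 (adjusted p = 0.00533), Ccl2 fell by 0.43 (adjusted p = 0.00521), Ccl7 fell by 0.42 (adjusted p = 0.00457) and Ccl12 fell by 0.40 (adjusted p = 0.00782). Ccl3, Ccl4, Ccl9 and Cxcl12 were the others, at -0.29, -0.32, -0.21 and -0.43. Tumours 17 and 4 set the low end of the percentage: without tumour 17, 4 members remained called (Ccl2, Ccl5, Ccl7 and Cxcl13), with 0.663% of genes called. Without tumour 4, 5 did, these and Ccl12, with 0.843% of genes called. Without tumour 18, 16 members were called, and the share of all genes in that fit is not given here. Without tumour 6, 13 fell, with 15.7% of genes called. Of the macrophage and monocyte genes, 7 of 8 fell as well.

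**Figure D2:**
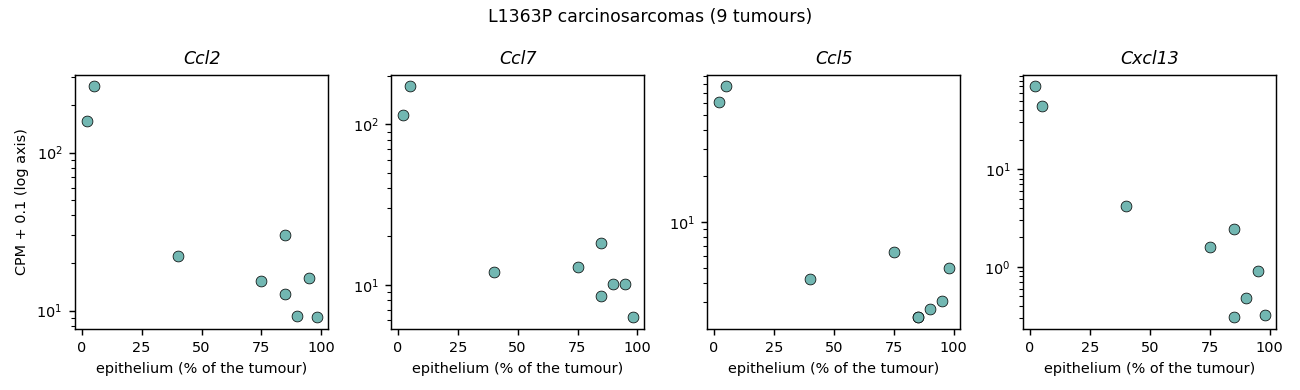
Ccl2, Ccl7, Ccl5 and Cxcl13 in the 9 L1363P carcinosarcomas against the labelled percentage of epithelium, as CPM plus 0.1 on a log axis; each point is 1 tumour. The tumours at 2% and 5% are the highest for each, as in Ccl2 at 157.7 and 262.9 CPM.

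Carcinosarcomas and adenocarcinomas of L1363P differed in 1 member, Cxcl17, which was lower in carcinosarcomas (-5.19 ± 1.05, adjusted p = 0.0084), with 2.7% of genes called, 2.16% as lower. It was at 0 to 0.9694 CPM against 0.135, 8.43 and 25.65 CPM, so 1 adenocarcinoma lay within the range of the carcinosarcomas. The call was lost without adenocarcinoma 7.2, and without carcinosarcoma 6 Ccl28 was called as lower too. Cxcl5 ranged from 1.463 to 133.4 CPM in carcinosarcomas and did not pass (4.03, adjusted p = 0.141). Ccl28 (-1.68, adjusted p = 0.0974), Ccl12 (2.72, adjusted p = 0.177) and Cxcl12 (2.61, adjusted p = 0.233) did not pass.

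In KP tumours the comparison of carcinosarcoma with adenocarcinoma called 0 members and 0% of genes in edgeR, where 2 members and 11.9% of genes had an unadjusted p under 0.05, and DESeq2 called 184 genes and 0 members. Among KP adenocarcinomas, 90.01A was the highest for 23 of 32 members and held over 50% of the group's summed CPM for 20 of them. Cxcl3 was at 0.1385, 0.2318, 0.5702, 3.753 and 502.7 CPM in adenocarcinomas 89.01A, 40, 131.03A, 39 and 90.01A, so that 90.01A held 99.1% of the group's summed CPM, and at 2.228, 2.191 and 5.201 CPM in the 3 carcinosarcomas. Cxcl5 was at 1.316, 6.955, 9.622, 37.82 and 389.5 CPM in the same order of adenocarcinomas and at 36.46, 12.72 and 54.07 CPM in carcinosarcomas. The fitted log2 fold change of Cxcl3 was -4.96 (adjusted p = 0.368) and turned to 1.42 without 90.01A. Ccl6 (-1.38, adjusted p = 0.512) also changed sign without it, to 0.11. Ccl25 (-1.43, adjusted p = 0.362) and Xcl1 (-2.52, adjusted p = 0.486) were not called.

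Of the Cxcr3 ligands, Cxcl9 was at 53.88, 72.03 and 73.99 CPM in the 3 carcinosarcomas and at 1.039, 7.728, 18.55, 20.24 and 272.8 CPM in the 5 adenocarcinomas. Cxcl11 was at 22.33, 49.15 and 65.4 CPM against 0.06927 to 40.9 CPM; the annotation lists it as a polymorphic pseudogene. Neither was called. The difference of the histology effects between L1363P and KP (carcinosarcoma minus adenocarcinoma) was called for 0 of 31 members and for 2 of 16147 genes (0.0124%) in edgeR, with 9 members and 15% of all genes at an unadjusted p under 0.05. Cxcl3 had the smallest p (9.25 ± 2.99, adjusted p = 0.201).

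L1363P and KP adenocarcinomas, which shared a run, differed in 0 of 31 members in edgeR, with 0.211% of genes called. In that comparison 10 members and 15.9% of all genes had an unadjusted p under 0.05, and DESeq2 called 2 members and 468 genes. Cxcl5 was the first by p, at 1.484, 2.01 and 2.228 CPM in L1363P against the KP values above (-5.52 ± 1.69, adjusted p = 0.151). KP tumour 90.01A held 87.5% of the group's summed Cxcl5, and without it the fold change was -2.87 ± 1.28 (adjusted p = 0.345). Ccl6 (-2.27, adjusted p = 0.235), Ccl28 (1.59, adjusted p = 0.247) and Ccl24, an eosinophil ligand (-2.55, adjusted p = 0.257), followed in their classes. Without 90.01A, Ccl6 was at -0.78 and Ccl24 at -1.44. The median over members was -1.93 and over all genes -0.04, and without 90.01A the member median was -0.75.

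KP adenocarcinomas had higher levels of 17 of 32 members than KB1P and KB1PM adenocarcinomas and of 17 than KB2P adenocarcinomas, with 0 lower in either; the 2 comparisons share the KP tumours. In all, 27.3% of 18492 genes were called in the first (15% as higher) and 35.3% in the second (17.2% as higher), and run and genotype cannot be told apart. Against KB1P and KB1PM the first by p were Cxcl3 (7.08 ± 1.07, adjusted p = 5.25e-07), Ccl7 (3.70, adjusted p = 8.67e-07), Ccl9 (2.90, adjusted p = 2.12e-05), Ccl12 (2.58) and Cxcl5 (3.79). Against KB2P they were Cxcl5 (6.89 ± 0.78, adjusted p = 1.03e-10), Cxcl3 (7.51, adjusted p = 2.54e-08), Ccl6 (3.69), Ccl7 (4.02) and Ccl12 (3.06). The receptors Ccr1, Ccr2, Cxcr1, Cxcr2, Cxcr6 and Cx3cr1 were higher in both, and Ccr10 was lower in both. All 8 macrophage and monocyte genes were higher in both. Their sum was 9309 CPM in KP tumour 90.01A and 521.1 to 2374 CPM in the other KP adenocarcinomas. Receptor and marker calls without 90.01A are not reported here.

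Tumour 90.01A carried most of these calls. Without it, 2 members were higher against KB1P and KB1PM, Ccl11 (1.95, adjusted p = 0.0212) and Cxcl15 (4.09), with 9.35% of genes called as higher. Cxcl2 and Ccl4 turned sign to -0.37 and -0.32. Against KB2P, 8 were called, with 13% of genes called as higher: Cxcl5 (4.28, adjusted p = 1.56e-05), Ccl6 (2.21), Ccl7 (1.90), Ccl12 (1.76), Ccl9 (1.71), Ccl11 (2.90), Cxcl14 (1.77) and Cxcl15 (6.92). Cxcl5 lay above all 23 KB2P tumours, which reached at most 6.249 CPM, in 4 of the 5 KP tumours. Cxcl15 rested on KP tumour 40 at 105.7 CPM, 99.1% of the group's sum, against 0.1385 to 0.4957 CPM in the other 4; without tumour 40 its fold change against KB1P and KB1PM was -2.59 (adjusted p = 0.26).

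**Figure D3:**
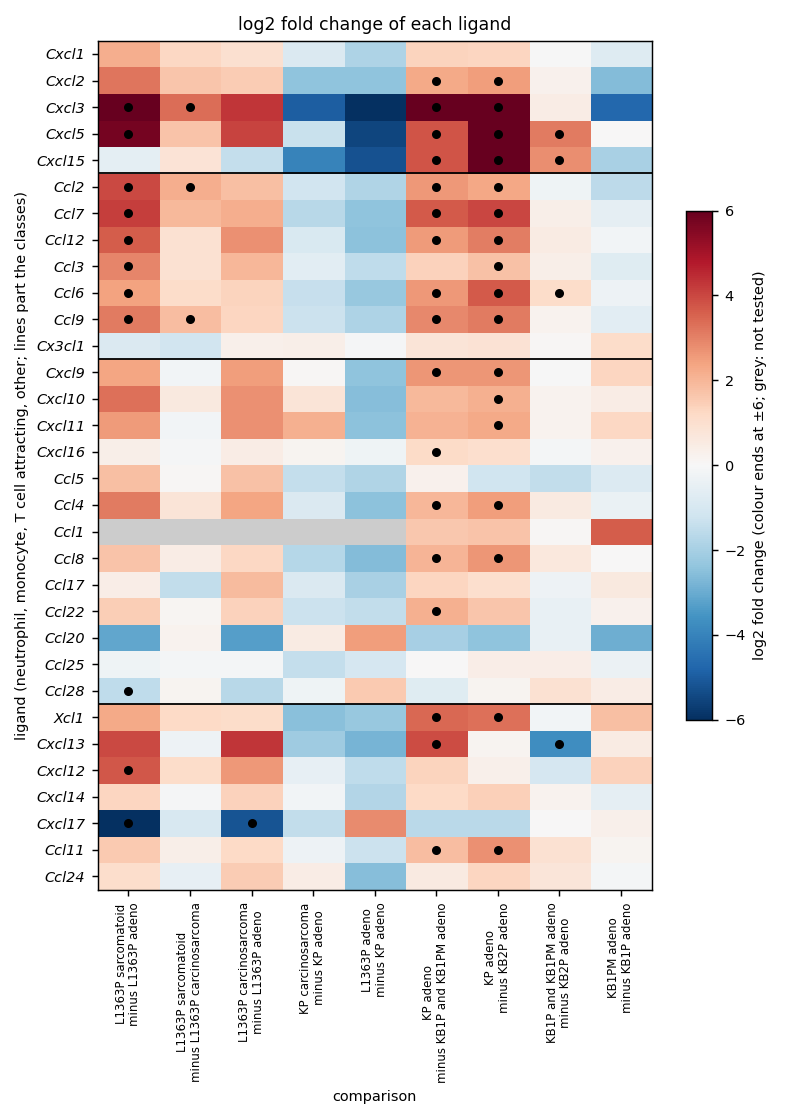
Log2 fold changes of the members (rows, by class) in the comparisons of groups (columns); colour runs from -6 to 6, grey marks a member that was not tested and a dot an adjusted p under 0.05 in edgeR. The columns of sarcomatoid against adenocarcinoma (11 dots) and of KP against the KB groups (17 dots each) hold most dots, and KP carcinosarcoma against adenocarcinoma holds 0.

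KB1P and KB1PM adenocarcinomas, averaged with equal weight, differed from KB2P adenocarcinomas in 4 of 32 members, 3 higher and 1 lower, with 13.2% of genes called (5.38% as higher and 7.81% as lower). Cxcl5 was higher, with group medians of 2.126 CPM in KB1P, 1.063 CPM in KB1PM and 0.2609 CPM in KB2P (3.10 ± 0.60, adjusted p = 0.000151); the ranges overlapped, and the highest value of 44.38 CPM was in KB1PM tumour 11. Cxcl13 was lower (-3.71 ± 0.78, adjusted p = 0.000486), at 0 to 1.76 CPM in KB1P and KB1PM and 0 to 20.82 CPM in KB2P, where 7 of 23 tumours lay above all 21 of the others. Cxcl15 (2.81 ± 0.86, adjusted p = 0.0195) and Ccl6 (1.08 ± 0.37, adjusted p = 0.0417) were the others. Ccl6 kept its call in 6 of 14 alternatives and Cxcl15 in 6 of 12. Without run 1756, which is 7 of the 10 KB1PM libraries, Cxcl5, Ccl6 and Cxcl15 were not called, and without run 2749 Ccl6 and Cxcl15 were not. Ccl28 (0.91, adjusted p = 0.055), Ccl11 (0.92, adjusted p = 0.113), Ccl12 (0.49, adjusted p = 0.383) and Cxcl3 (0.43, adjusted p = 0.809) did not pass.

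Cxcr5, the receptor of Cxcl13 on B cells, was lower in KB1P and KB1PM as well (-1.40 ± 0.34, adjusted p = 0.00276), and so were the B cell genes Cd79a, Cd79b and Ms4a1. The summed B and plasma cell level had a median of 3.386 CPM in KB1P (1.904 to 16.31), 2.923 CPM in KB1PM (1.148 to 31.32) and 5.27 CPM in KB2P (1.808 to 156.6). The part of B cells in the Cxcl13 level was not tested. Ccr1 was higher (0.97, adjusted p = 0.0268).

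KB1PM and KB1P differed in 0 of 32 members, with 0.887% of genes called. Cxcl3 (-4.70, adjusted p = 0.0615) and Ccl1 (3.61, adjusted p = 0.0647) came first by p. L1363P adenocarcinomas differed from KB1P and KB1PM in 0 members (5% of genes called) and from KB2P in 1, Ccl28 (9.1% of genes called, 4.41% as higher). Ccl28 was at 0.7133, 1.35 and 5.419 CPM in L1363P and at 0 to 1.98 CPM in KB2P (1.78 ± 0.58, adjusted p = 0.0379), and the call was lost without L1363P adenocarcinoma 7.2 or 52. As a measure of runs within 1 genotype, 12 KB2P libraries of run 2749 were compared with 9 of run 2459. Cxcl12 was higher in run 2749 (3.34 ± 0.96, adjusted p = 0.0244), the 1 called member, with 6.9% of 19230 genes called, 2.91% as higher. Tumour 30 of run 2749, whose epithelial markers were low, was at 1258 CPM, 47.6% of the Cxcl12 sum of all KB2P tumours. Tumour 46 of that run was at 244.0 CPM. The comparison was not run without tumour 30.

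Per kb of annotated exon, Ccl8, a mouse ligand of Ccr8, had the highest median of all members in 6 of the 8 groups. Its median was 107.7 CPM per kb in KP adenocarcinomas, 38.21 in KB1P, 21.07 in KB1PM and 20.83 in KB2P, and Cxcl14 came second in these 4 groups at 53.6, 25.41, 15.7 and 14.84 CPM per kb. In sarcomatoid tumours Ccl8 was not among the first 6, which were Ccl2, Ccl7, Ccl6, Cxcl12, Ccl12 and Ccl9. Cxcl16, the membrane-bound ligand of Cxcr6, was among the first 4 in the other 7 groups. Ccl1, Xcl1 and Ccl17 stayed at or under 8.077 CPM in every tumour.

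**Figure D4:**
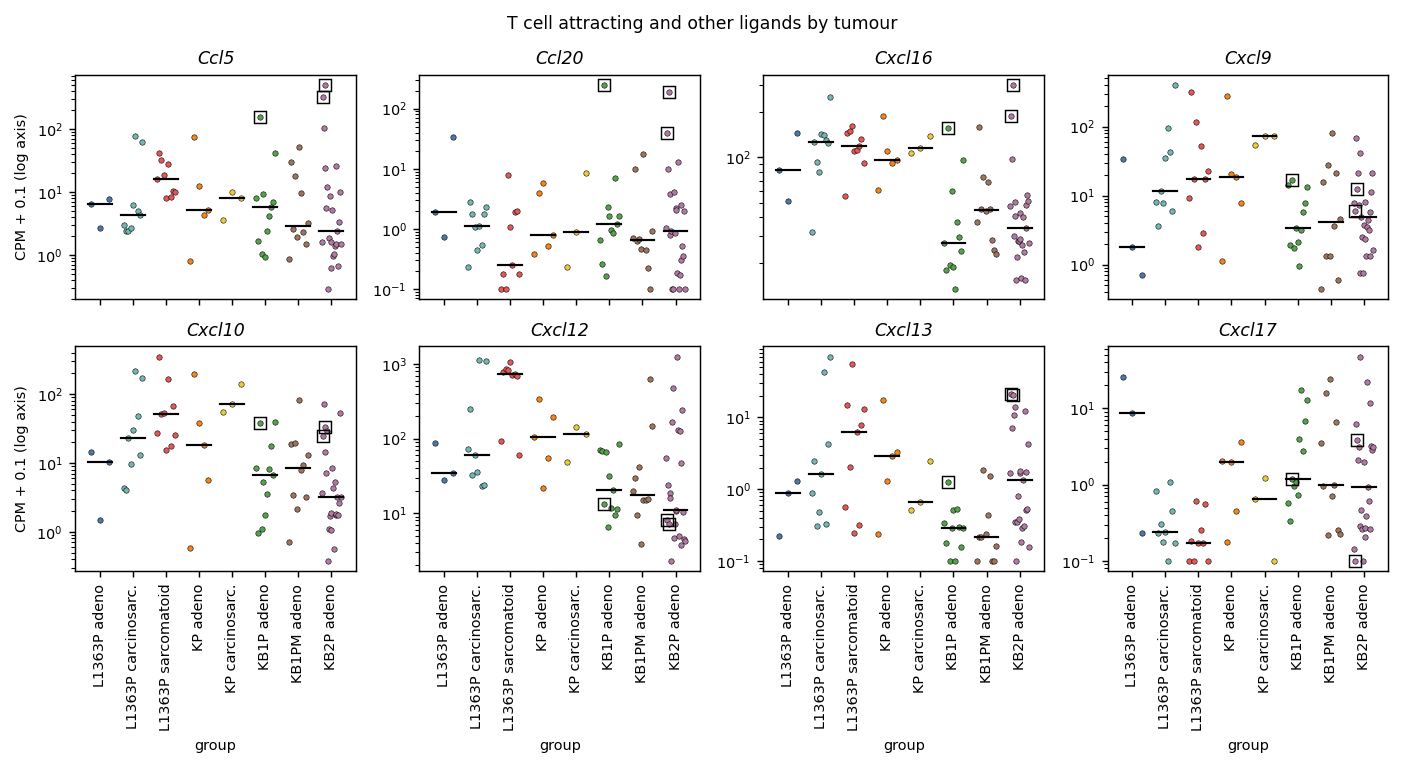
Lymphocyte and other ligands in each tumour, as CPM plus 0.1 on a log axis; each point is 1 tumour, bars are group medians and squares mark KB1P tumour 12 and KB2P tumours 12 and 16. The squares are the highest KB tumours for Ccl20 (249.4, 38.53 and 190.9 CPM) and Ccl5 (157.7, 324.6 and 506.0 CPM), and Cxcl12 is high in most sarcomatoid tumours.

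Among the 44 KB1P, KB1PM and KB2P adenocarcinomas, 3 tumours of different runs stood out together; they were picked after their values were seen and are described without a test. KB1P tumour 12, KB2P tumour 12 and KB2P tumour 16 were the 3 highest for Ccl20, at 249.4, 38.53 and 190.9 CPM against a median of 0.7892 CPM. They were also the 3 highest for Ccl5 (157.7, 324.6 and 506.0 CPM, median 3.138) and for Ccl2 (103.9, 62.02 and 77.04 CPM, median 4.553). Of the signal genes, they were the 3 highest for Nfkb2 (322.3, 299.9 and 444.0 CPM, median 90.52), Relb (243.2, 160.7 and 187.1 CPM, median 32.11), Nfkbia (311.7, 481.3 and 528.6 CPM, median 68.59), Tnf and Il1b. Cxcl16 was at 156.7, 186.1 and 301.1 CPM in them, all among the 4 highest. Lymph node stroma genes (Cr2, Fcer2a, Madcam1, Lyve1 and Chst4) summed to 168.4 and 196.7 CPM in KB1P 12 and KB2P 16, the highest of their groups, and to 5.113 CPM in KB2P 12. Macrophage and monocyte genes summed to 1904, 2372 and 1486 CPM, and the part of these cells was not tested.

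Within groups of 9 or more tumours, 13 ligands were set against the marker score of the leukocyte they attract (the mean log2 CPM of its marker genes), which gave 65 relations. By permutation of tumours, 50 had a Benjamini-Hochberg adjusted p under 0.05 for Pearson's r, and 61 of the 65 were positive. Other genes were not set against these scores. These counts therefore have no share over all genes beside them, and whether they are particular to the ligands was not tested. In sarcomatoid tumours (n = 9, exact permutation test) Cxcl9 followed the T cell score with r = 0.969 and rho = 0.883 (adjusted p = 0.000716 and 0.0167), and r was 0.944 without the 2 tumours farthest from the median score. Cxcl5 followed the neutrophil score there with r = 0.85 and rho = 0.667 (permutation, adjusted p = 0.0158 and 0.087; 0.648 without those 2). In KB1P (n = 11, permutation) Cxcl5 and the neutrophil score had r = 0.933 and rho = 0.855 (adjusted p = 0.000716 and 0.0088; 0.886 without the 2 farthest). Cxcl9 and the T cell score had r = 0.948 and rho = 0.955 there (permutation, adjusted p = 0.000716 and 0.00162; 0.918 without the 2 farthest).

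Some of these relations rested on few tumours or on a run. In L1363P carcinosarcomas the r of Ccl2, Ccl7 and Ccl12 with the macrophage score was 0.868, 0.895 and 0.875 (n = 9, exact permutation test, adjusted p = 0.0238, 0.0208 and 0.0197), with rho of 0.5, 0.633 and 0.7 (adjusted p = 0.218, 0.103 and 0.0686). Without the 2 tumours farthest from the median score r was 0.019, 0.111 and 0.144, so these relations rested on those 2 tumours. In KB2P (n = 23), Ccl7 and the macrophage score had r = 0.75 and rho = 0.762 (permutation, adjusted p = 0.000716 and 0.00162; 0.736 without the 2 farthest), with r = 0.6 within run 2459 and 0.73 within run 2749. Cxcl9 and the T cell score had r = 0.595 and rho = 0.694 in KB2P (permutation, adjusted p = 0.00949 and 0.0039; 0.665 without the 2 farthest), with 0.694 within run 2459 and 0.15 within run 2749. Cx3cl1 and the macrophage score passed in 1 of the 5 groups, KB1P (r = 0.658, rho = 0.536, permutation adjusted p = 0.0391 and 0.127; 0.467 without the 2 farthest). Ligand and marker levels of a relation come from the same library and share its depth and its cell content.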

How the data were processed

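Per the labels' protocols, RNA was extracted with TRIzol and poly(A) libraries were made with the TruSeq Stranded mRNA kit and sequenced on a HiSeq2500. The submitters' processing notes name the mm10 build, featureCounts 2.0.0, DESeq, STAR 2.7.3a and cutadapt 2.10, while settings, strand use and annotation are not given in the sources used here. The authors deposited a table of raw read counts per gene symbol (39438 symbols) and a table of log2 normalised values (37148 symbols). The deposited log2 values could be turned back into whole reads within 0.01 for 100.0% of values; of the 34 members, 16 held identical reads in both tables and the largest difference was 6 reads. In the count table, 24 symbols had been turned into dates and held 0.1688% of counts.

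Counts were tested with edgeR 4.0.16 in R 4.3.3 (quasi-likelihood F test, genes kept with filterByExpr at a minimum count of 10, TMM factors, Benjamini-Hochberg adjustment over all genes tested, threshold 0.05). Comparisons within L1363P and KP used the 29 libraries of run 5625, and comparisons with KB1P, KB1PM or KB2P used all 73 libraries, with KB1P and KB1PM weighted equally. The test of the difference between histology effects was added later. The procedure was tested on simulated data. DESeq2 1.42.0 and limma 3.58.1 on the deposited log2 values were alternatives, as were DESeq2 size factors, no filter, fewer samples in the fit, and leaving out tumours or runs. Marker scores were mean log2 CPM with a prior count of 2. Correlations used scipy 1.17.1 with exact permutation at n under 10 and 100000 resamples otherwise. CPM per kb used the merged exon length of each gene in the GENCODE annotation of GRCm38.

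Members and gene lists were chosen with earlier results of these data known. Named were the members past each test, up to 10 by adjusted p, up to 2 per class that did not pass, and up to 6 receptors; the 3 KB tumours with high Ccl20 were picked after their values were seen. The labels do not say that tumours came from separate mice, and tumours 54.1 and 54.2 share a number, so p-values measure the spread between these samples only. All counts are subject to counting error, which is largest for members near 0. Some values of single receptor and marker genes are not reported here.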

Additional observations from a re-analysis of the deposited data

Results flagged for a closer look

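In groups of 4 to 10 tumours, a member was singled out where its highest or lowest tumour stood apart from the rest of its group by Dixon's test on log2 CPM. This held for 10 of 128 combinations of gene and group, and chance alone singles out about 1 in 20.

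KB1PM tumour 10 was highest for Ccl1, a ligand of Ccr8, at 2.754 CPM against a group median of 0, and for Ccl17, a ligand of Ccr4, at 4.016 CPM against 0.3292. KB1PM tumour 4 was highest for Ccl12 at 12.85 CPM against 2.867 and for the eosinophil ligand Ccl24 at 9.253 CPM against 0.04423. Among L1363P tumours, sarcomatoid tumour 20 had Ccl1 at 0.8065 CPM against a median of 0, and carcinosarcoma 45 had Ccl17 at 8.077 CPM against 0.5712. Sarcomatoid tumour 9.1 had Ccl9 at 1046 CPM against 244.2, and sarcomatoid tumour 10 had the lowest Cxcl3, at 5.565 CPM against 69.24. In KP adenocarcinomas, Ccl25, a ligand of Ccr9, was at 42.05 CPM in tumour 131.03A against a median of 5.628, and Cxcl15 was at 105.7 CPM in tumour 40 against 0.2138.

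Outside the count table, Ccl27a, a skin ligand of Ccr10, had 4063 reads over the 73 tumours when the deposited log2 values were turned back into reads, from 13 to 154 per tumour, and it entered no test. Ccl19 had 8 reads in all by the same route.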

How the results depend on the processing

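Of the member results under settings other than leaving out 1 tumour, 546 kept their direction and side of the threshold, 43 lost the call, 31 gained one and 11 turned sign; when 1 tumour was left out these were 1229, 100, 27 and 10. Causes were not tested.

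The count of members called moved with the tool or samples as follows. Shares over all genes are not given beside these counts, so a change in them is not shown to be particular to the members. Some counts over all genes follow at the end of this section. DESeq2 called 18 (edgeR 11) for sarcomatoid against L1363P adenocarcinoma, 5 (3) against carcinosarcoma, 5 (1) for carcinosarcoma against L1363P adenocarcinoma, 2 (0) for L1363P against KP adenocarcinoma, 1 (0) for KB1PM against KB1P, 2 (1) between KB2P runs and 16 (9) for the slope on epithelium. Limma on the log2 values called 9 for sarcomatoid against carcinosarcoma, 0 for carcinosarcoma against L1363P adenocarcinoma, 2 for KB1P and KB1PM against KB2P and 0 for L1363P adenocarcinoma against KB2P. With only the groups compared these last 3 were 0, 2 and 0. Sarcomatoid against carcinosarcoma had 16 at 75% epithelium or more and 17 without KP 90.01A and L1363P 17 and 4. KB1P and KB1PM against KB2P had 2 called without run 1756 (Cxcl13 of the 4, and Ccl11) and 2 without run 2749 (Cxcl13 and Cxcl5), and KB1PM against KB1P had 1 without run 1725 or 2119. Leaving out each tumour gave 2 to 14 members for sarcomatoid against L1363P adenocarcinoma (14 without KP 90.01A, 13 without carcinosarcoma 6), 1 to 8 against carcinosarcoma, 0 to 2 for carcinosarcoma against L1363P adenocarcinoma, 0 to 1 for L1363P adenocarcinoma against KB2P, 2 to 20 for KP against KB1P and KB1PM, 8 to 18 for KP against KB2P and 4 to 16 for the slope. A prior count of 0.5 gave 49 of 65 relations (main 50).

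Signs turned in these members, given as log2 fold changes. With limma they were Cxcl3 in KP histology (0.32), Ccl24 in L1363P against KB1P and KB1PM (0.15) and Ccl5 in L1363P against KB2P (0.079). Without L1363P adenocarcinoma 7.2, Cx3cl1 was at 0.44 in sarcomatoid tumours, and without 52, Ccl20 was at 0.23 (-4.28 without sarcomatoid tumour 32). Without KP 90.01A, KP histology had Ccl6 at 0.11 and Cxcl3 at 1.42, and 0.13 and 1.43 when L1363P 17 and 4 were left out too. KP against KB1P and KB1PM then had Ccl3 at -0.51, Ccl4 at -0.32 and Cxcl2 at -0.37, and KP against KB2P had Ccl3 at -0.12 and Cxcl2 at -0.085. Without KP 40, Cxcl15 against KB1P and KB1PM was at -2.59 (4.07 without KP 39). Without run 1857, Cxcl3 was at -2.47 against KB2P and 1.15 for KB1PM against KB1P, and without run 1756 it was at -0.39 against KB2P.

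The KB groups share title numbers, which did not pair the tumours: over 14968 genes, 17 same-number pairs had a median r of 0.00874 (-0.1439 to 0.4563), and 2 of 28 tumours correlated best with their own number. With the replicate block, 0 members and 265 genes were called for KB1P and KB1PM against KB2P, where Ccl11 (-0.69), Ccl12 (-0.0059) and Ccl6 (-0.058) turned sign, and 1 gene for KB1PM against KB1P.

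Counts over all genes moved too. Carcinosarcoma against L1363P adenocarcinoma called 436 genes, with 1119 in DESeq2, 175 in limma and 6 in the groups alone. L1363P against KP adenocarcinoma called 34, with 468 in DESeq2. KB1PM against KB1P called 164, with 334 unfiltered, 4 in limma and 2 in the groups alone. KB1P and KB1PM against KB2P called 2439, with 1521 in the groups alone, and L1363P adenocarcinoma against KB2P called 1683, with 924. Members near 0 CPM, such as Ccl1, are limited by depth.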
